A study of Mus musculus with 12 samples.

Results

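Single treatments of the same mouse tumor model were set directly against each other here: the CDK4/6 inhibitor palbociclib and the anti-PD-1 antibody. All tumors grew under the skin of C57BL/6 mice from LLC1-shLkb1 cells, a Lewis lung carcinoma line in which a short hairpin RNA lowers Lkb1 (gene symbol Stk11), and the GEO labels call the tissue an LKB1-deficient lung adenocarcinoma. Every group carried the knockdown, so no tumor without it served as a reference. Palbociclib was given by mouth at 100 mg/kg, and anti-PD-1 (clone RMP1-14) was injected into the abdomen at 200 µg per mouse. In each 7-day cycle palbociclib was given on days 1, 2 and 3 and anti-PD-1 on days 1, 3 and 5. Per the study's methods the mice were 5 to 8 weeks old and of both sexes, treatment began 7 days after the injection of cells, vehicle mice received a control IgG, and tumors were collected 2 weeks after treatment. The comparison used 6 of the 12 RNA-sequenced tumors, 3 with palbociclib and 3 with anti-PD-1. The 3 vehicle and 3 combination tumors entered the fit and give reference levels. Tumors of a group are numbered replicates, and no label says that each came from a different mouse or litter. The p-values set each difference against the spread between tumors within groups, pooled over all 4 groups. Whether that spread is one between mice or litters is therefore not known. Genes with a mean FPKM (fragments scaled by gene length and library size) of at least 1 over the 6 tumors were compared. They were 11207 of 34678 listed symbols, of which 21665 were above 0 in at least 1 of the 6. Values of the tumors of a group are given in the order of replicates 1, 2 and 3. Errors of log2 differences are standard errors from the spread pooled over the 4 groups, with n = 3 tumors per group.

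CDK4 and CDK6 are the kinases that, with D-type cyclins, phosphorylate the RB protein and release E2F factors to switch on genes of S phase. PD-1 is an inhibitory receptor of T cells, and its ligands PD-L1 and PD-L2 are made by tumor and myeloid cells. Interferons of type I activate transcription factors that bind the interferon-stimulated response element of genes such as Isg15. Interferon gamma, a product of T and NK cells, raises guanylate-binding proteins, Cxcl9 and the genes of antigen presentation. A subcutaneous tumor is a mixture of cancer cells, myeloid cells, lymphocytes, vessels and fibroblasts, and in such bulk RNA fewer cells of a type and less RNA per cell cannot be told apart.

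No single gene passed the test. With limma on log2(FPKM + 0.1) and Benjamini-Hochberg adjustment, 0 of 11207 genes (0%) had an adjusted p under 0.05, and the smallest adjusted p was 0.0606. Before adjustment, 1235 genes had a p under 0.05, of which 984 (8.78% of all genes) were higher with palbociclib and 251 (2.24%) lower. The 3 palbociclib tumors all lay above the 3 anti-PD-1 tumors for 1500 genes (13.4%) and all below for 479 (4.27%). The excess of higher genes depended on the scaling between tumors: 79.7% of the genes with an unadjusted p under 0.05 were higher with palbociclib on the deposited scale, against 48.1% after quantile normalization (572 higher, 618 lower). Over all genes the median log2 difference was 0.06. At an adjusted p under 0.1 lay 14 genes, 13 higher and 1 lower, of which 3 are unnamed gene models. In decreasing order of significance the named ones were Trim12a, Ddx60, Uba7, Slc48a1, Sp100, Trim30a, Tapbp, Parp9, H2-T22, Tap1 and Psmb9. All but Slc48a1 were higher with palbociclib. Of the 10 higher ones, Tapbp, H2-T22, Tap1 and Psmb9 belong to the MHC class I list and Trim30a to the type I interferon list, and the others are in none of the lists. Because no gene passed, "higher" and "lower" below describe measured levels in these tumors.

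**Figure D1:**
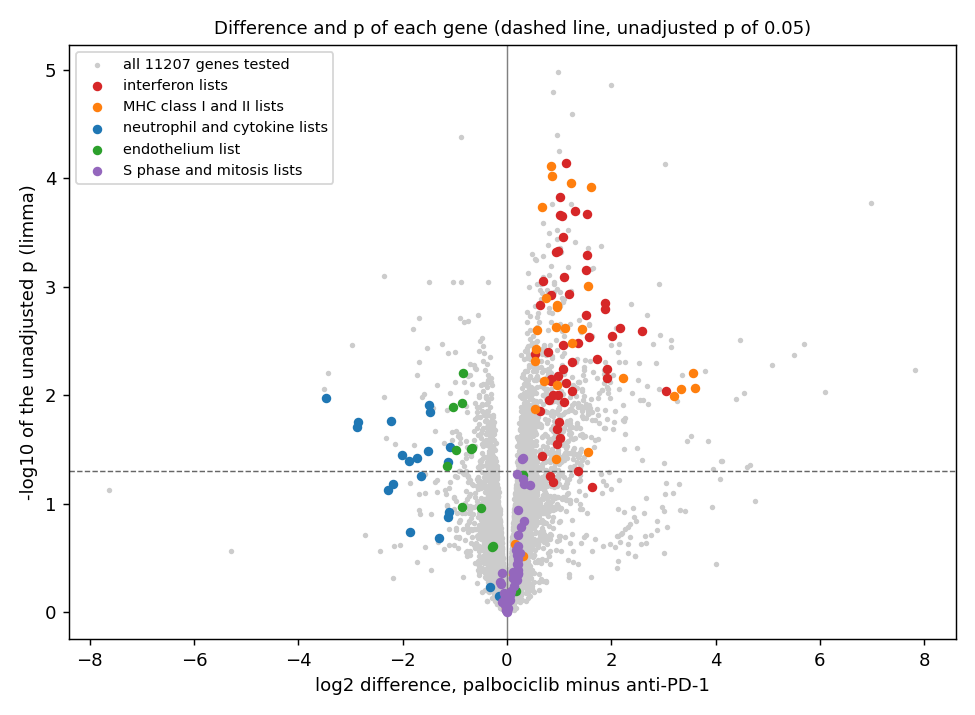
Each point is 1 of 11207 genes, with the log2 difference of palbociclib minus anti-PD-1 on the horizontal axis and the negative log10 of the unadjusted limma p on the vertical axis, and the dashed line marks an unadjusted p of 0.05. Genes of the interferon and MHC lists lie to the right, those of the neutrophil, cytokine and endothelium lists mostly to the left, and the S phase and mitosis genes lie around 0.

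Before the gene groups, the libraries were compared. Steps between low FPKM values gave an estimated 14.7 to 16.5 M fragments in the palbociclib tumors and 16.3 to 18.9 M in the anti-PD-1 tumors, and the 10 highest genes took 8.21% to 11.7% of the summed FPKM. Tumors did not group tightly by treatment. The mean correlation with the other tumors of the arm was 0.948 for anti-PD-1 replicate 1 against 0.967 for replicates 2 and 3, and it was 0.952, 0.943 and 0.956 for palbociclib replicates 1, 2 and 3. Palbociclib replicate 1 correlated with the anti-PD-1 tumors at 0.953, no less than with its own arm. In anti-PD-1 replicate 1 the summed FPKM of 22 macrophage and monocyte genes was 1579, against 485 and 508 in the others and 1318 to 2008 with palbociclib. Tissue from around the tumor was present unequally. The summed FPKM of 11 adipose genes was 523, 27.4 and 54.9 in the palbociclib tumors and 8.11 to 10.99 with anti-PD-1. That of 13 skin and hair genes was 2.64, 412 and 1.99 with palbociclib and 1.06 to 2.43 with anti-PD-1. For 12 skeletal muscle genes it was 1.92, 8.04 and 202 against 0.855 to 13.6. Thus fat transcripts were higher in all 3 palbociclib tumors and most abundant in replicate 1, skin in replicate 2 and muscle in replicate 3. Fat was also high in combination replicate 1 and muscle in combination replicate 2. The skin markers Krt5 and Krt14 were listed at 0 in all 3 anti-PD-1 tumors. The part of these tissues in the results below was not tested. The epithelial marker Epcam stood at 0.0592 to 1.81 FPKM with palbociclib and 0.132 to 0.2703 with anti-PD-1, near 0 for tumors labelled adenocarcinoma, while keratin Krt8 stood at 106 to 147 and 121 to 276. Xist, which is transcribed from the inactive X chromosome, was 5.396, 8.17 and 4.56 with palbociclib and 4.44, 1.49 and 2.76 with anti-PD-1, and Ddx3y, Kdm5d and Eif2s3y of the Y chromosome were listed at 0 in all 6 tumors.

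**Figure D2:**
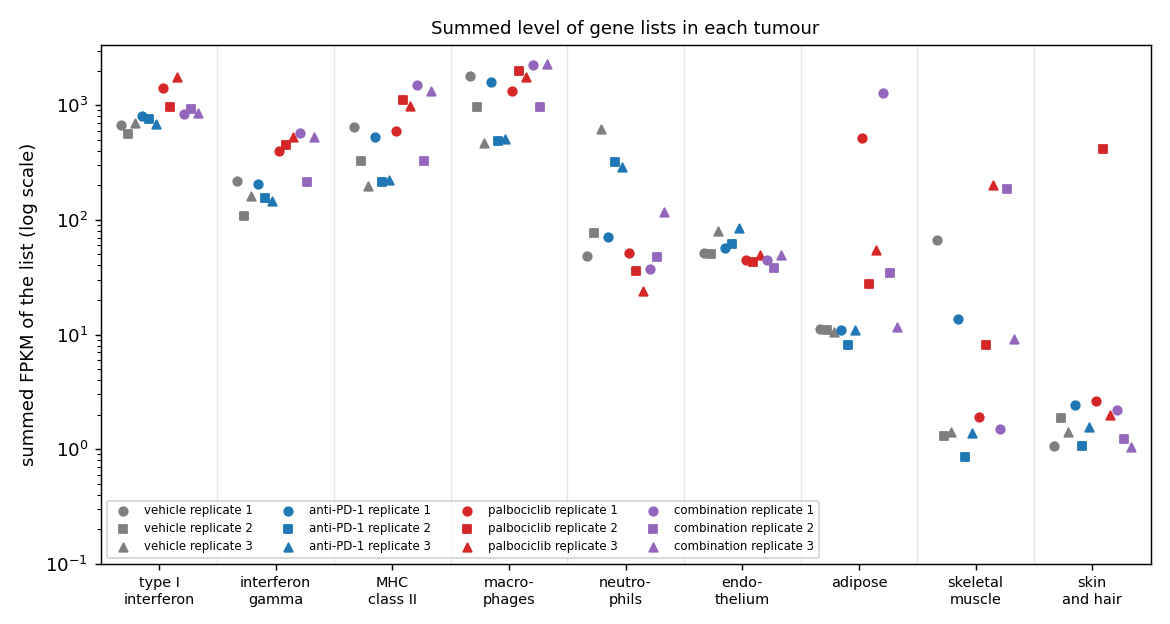
Summed FPKM of 9 gene lists in each of the 12 tumors on a log scale, with color for the treatment and marker shape for the replicate number. The palbociclib tumors lie above the anti-PD-1 tumors for both interferon lists and below them for neutrophils and endothelium, and among these 6 tumors fat, muscle and skin genes are highest in 1 palbociclib tumor each, while combination replicate 1 has the highest fat sum of all 12.

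The kinases that palbociclib inhibits and the knocked-down gene overlapped between the treatments. Stk11, the gene lowered by the hairpin, measured 9.72, 9.51 and 10.3 FPKM in the palbociclib tumors and 9.28, 10.7 and 7.898 in the anti-PD-1 tumors, a log2 difference of 0.09 ± 0.13 (SE, adjusted p = 0.851). Cdk4 measured 56.7, 56.5 and 58.5 with palbociclib and 56.2, 56.7 and 51.3 with anti-PD-1 (log2 difference 0.07 ± 0.12, adjusted p = 0.882). Cdk6 measured 8.65, 7.64 and 7.402 against 3.07, 5.65 and 8.02 (log2 difference 0.59 ± 0.45, adjusted p = 0.694), with the lowest level in anti-PD-1 replicate 1. The 2 groups overlapped for all 3 of these genes. Ccnd1, which encodes cyclin D1 and partners both kinases, was higher in every palbociclib tumor at 95.4, 101 and 93.7 against 85.2, 72.8 and 64.5 FPKM, a log2 difference of 0.39 ± 0.21 (SE, adjusted p = 0.5396). The retinoblastoma gene Rb1 measured 3.38, 3.97 and 3.02 against 2.83, 3.39 and 3.002 (log2 difference 0.16 ± 0.19, adjusted p = 0.808). Of the 17 genes of a CDK4/6 and RB list, 14 passed the filter on low values, and 2 of the 14 had an unadjusted p under 0.05, both higher with palbociclib, against 8.78% of all genes. These were Ccnd3 and Cdkn2c, named after their values were seen. Ccnd3, another D-type cyclin, measured 6.79, 6.08 and 7.49 with palbociclib and 6.03, 3.45 and 2.83 with anti-PD-1 (log2 difference 0.78 ± 0.23, adjusted p = 0.272). Cdkn2c, which encodes the CDK4/6 inhibitor p18, measured 16.7, 23.2 and 24.6 against 14.6, 13.3 and 12.6 (log2 difference 0.65 ± 0.20, adjusted p = 0.285). Neither overlapped between the groups.

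Genes downstream of CDK4/6 lay near the median of all genes. Of 29 S phase and E2F target genes, 1 had an unadjusted p under 0.05, the nucleotide reductase gene Rrm2, and the median log2 difference was 0.06 against 0.06 over all genes. Rrm2 measured 89.8, 105 and 90.03 with palbociclib and 79.2, 79.4 and 74.8 with anti-PD-1. The helicase gene Mcm5 overlapped at 70.01, 78.4 and 75.7 against 94.9, 73.6 and 67.5, and so did the replication clamp gene Pcna at 56.04, 59.97 and 60.1 against 69.97, 56.1 and 43.4. Among 22 genes of mitosis the median difference was 0.18 and 1, Cdk1, had an unadjusted p under 0.05. The proliferation marker Mki67 measured 62.3, 63.1 and 56.1 with palbociclib and 74.7, 43.3 and 52.2 with anti-PD-1 (log2 difference 0.13 ± 0.18, adjusted p = 0.843). Top2a, the topoisomerase that untangles chromosomes, measured 80.6, 74.5 and 76.6 against 88.8, 65.00 and 70.98. Cdc20, an activator of the anaphase ligase, measured 79.2, 77.3 and 92.3 against 102, 63.4 and 56.5. In these 3 genes, anti-PD-1 replicate 1 lay above every palbociclib tumor and the other anti-PD-1 tumors below. Without that tumor the median difference was 0.22 for the S phase list, with 5 genes at an unadjusted p under 0.05, and 0.35 for the mitosis list, with 8, all higher with palbociclib. Over all 11207 genes, 1328 were then higher and 457 lower at that p, against 984 and 251 with every tumor.

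The genes of PD-1 and both of its ligands were higher in every palbociclib tumor than in any anti-PD-1 tumor, without passing the test. Cd274, which encodes PD-L1, measured 16.1, 16.95 and 15.4 FPKM with palbociclib and 8.597, 9.05 and 8.96 with anti-PD-1. The levels within each group were close, and the log2 difference was 0.86 ± 0.28 (SE, adjusted p = 0.296), or 1.81-fold. With only the 6 monotherapy tumors in the fit, Cd274 was among 12 genes called. Pdcd1lg2, encoding PD-L2, measured 0.975, 3.35 and 1.43 against 0.349, 0.186 and 0.295 (log2 difference 2.27 ± 0.86, adjusted p = 0.362). The receptor gene Pdcd1 was low at 1.37, 1.43 and 2.47 against 1.27, 0.254 and 0.727 FPKM (log2 difference 1.28 ± 0.57, adjusted p = 0.436). Anti-PD-1 replicate 1 was the highest of its group for both Pdcd1 and Pdcd1lg2. In the vehicle tumors Cd274 measured 7.95, 9.92 and 13.6, so that vehicle replicate 3 lay between the treatment groups. Of 22 checkpoint genes, 14 passed the filter, with a median difference of 0.56. At an unadjusted p under 0.05, 6 of the 14 were higher and 1 lower, against 8.78% and 2.24% of all genes. With fewer tumors or genes the 6 became 2 without anti-PD-1 replicate 2, 3 without palbociclib replicate 2 and 2 with a filter at a mean FPKM of 5, where the median over 7 genes was 0.12. Over all genes, 780 and 603 of 11207 and 538 of 7222 were higher in these fits. Over all 22, 8 lay wholly higher and 3 wholly lower with palbociclib, against 12.5% and 3.29% of the 21665 genes above 0. Tigit and Pvr were named after their values were seen. The lower gene was Tigit, an inhibitory receptor of T and NK cells, at 5.06, 3.98 and 6.08 against 7.43, 7.83 and 7.45 FPKM (log2 difference -0.60 ± 0.17, adjusted p = 0.271). Its ligand gene Pvr (CD155) was also lower in all 3 palbociclib tumors at 13.01, 12.99 and 9.46 against 14.1, 16.8 and 17.1 (log2 difference -0.44 ± 0.22, adjusted p = 0.497). The abundant ligand Lgals9 measured 41.1, 34.6 and 55.8 against 38.3, 23.2 and 23.99 (log2 difference 0.63 ± 0.21, adjusted p = 0.296). Cd47, the signal that restrains phagocytosis, measured 17.1, 12.7 and 15.1 against 9.53, 12.1 and 22.2 (log2 difference 0.12 ± 0.28, adjusted p = 0.917), and the groups overlapped.

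Icam1, the adhesion molecule that the LFA-1 integrin of lymphocytes binds, measured 4.103, 8.39 and 6.44 FPKM with palbociclib and 4.13, 1.399 and 1.91 with anti-PD-1. Its log2 difference was 1.40 ± 0.53 (SE, adjusted p = 0.365), and palbociclib replicate 1 lay just below anti-PD-1 replicate 1, so the groups overlapped. In vehicle tumors it was 4.68, 2.68 and 2.06. Over all 17 leukocyte adhesion genes, 6 lay wholly higher and 1 lower, against 12.5% and 3.29% of the genes above 0. Past the filter were 12, with a median difference of 0.12. Of these, 3 (Icam1, Vcam1 and Selplg) were higher and 1 (Pecam1) lower at an unadjusted p under 0.05, against 8.78% and 2.24% of all genes. Vcam1, the endothelial ligand of VLA-4, and Selplg, the selectin ligand of leukocytes, did not overlap between groups and were named after their values were seen. Vcam1 measured 3.42, 3.79 and 6.05 against 1.53, 1.54 and 2.41 (log2 difference 1.22 ± 0.39, adjusted p = 0.288). Selplg measured 4.96, 6.74 and 6.29 against 2.76, 2.86 and 2.85 (log2 difference 1.05 ± 0.30, adjusted p = 0.266). The most abundant members, the integrin chains Itgb1, Itgb7 and Itgb2, overlapped and had log2 differences of -0.05, -0.27 and 0.10.

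**Figure D3:**
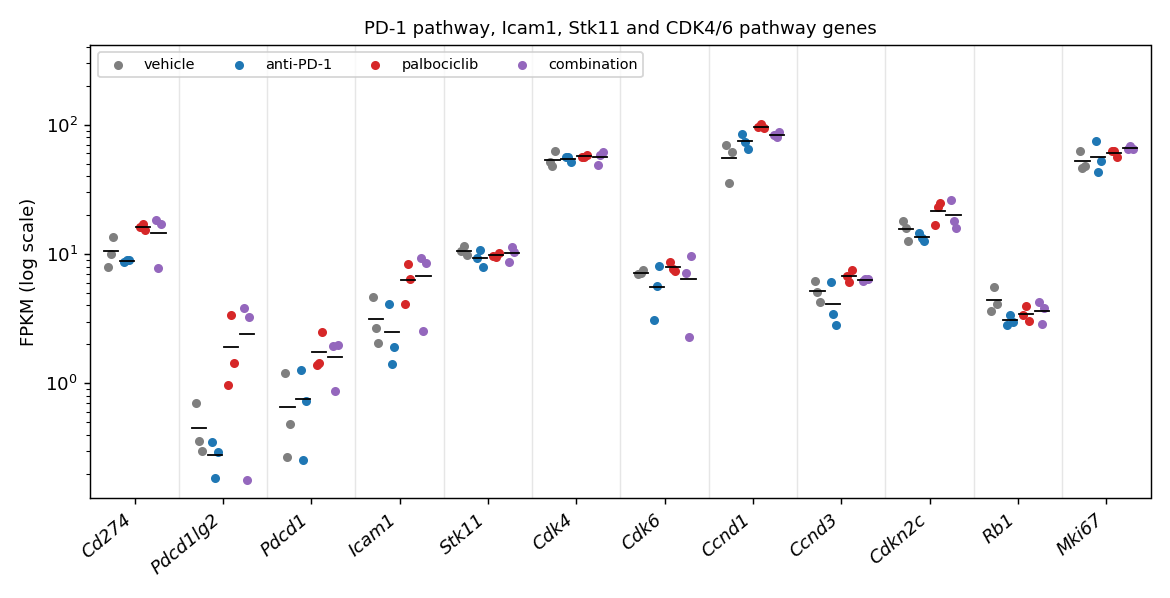
FPKM on a log scale of 12 genes (the PD-1 and CDK4/6 pathways, Icam1, Stk11 and Mki67) in each of the 12 tumors, 3 points per treatment with a bar at their mean. Cd274, Pdcd1lg2, Pdcd1, Ccnd1, Ccnd3 and Cdkn2c do not overlap between palbociclib and anti-PD-1, while Stk11, Cdk4, Cdk6, Rb1, Icam1 and Mki67 do.

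The higher genes with the smallest p are described next. Ddx60, a helicase-like sensor of viral RNA on chr8:61928087-62038244 (GRCm38), measured 3.27, 2.88 and 3.68 FPKM with palbociclib and 1.53, 1.18 and 1.28 with anti-PD-1. The log2 difference was 1.24 ± 0.18 (SE, adjusted p = 0.0715), or 2.36-fold. Vehicle tumors measured 1.02, 1.39 and 1.53, so the anti-PD-1 and vehicle tumors overlapped and the palbociclib tumors lay above both. Trim30a, a TRIM protein of macrophages on chr7:104409025-104465193, measured 15.3, 9.86 and 16.7 against 6.32, 5.43 and 6.68 (log2 difference 1.14 ± 0.19, adjusted p = 0.0861) and 5.28, 4.54 and 5.85 in vehicle tumors. Its relative Trim12a on chr7:104299894-104315466 measured 2.99, 2.82 and 3.21 against 1.57, 1.52 and 1.64 (log2 difference 0.89 ± 0.12, adjusted p = 0.0606). Both sit in a cluster of closely similar Trim genes, between which reads can be split uncertainly. Uba7, the enzyme that charges the ubiquitin-like protein ISG15, measured 4.77, 5.02 and 6.05 against 2.53, 2.63 and 2.76 (log2 difference 0.97 ± 0.15, adjusted p = 0.0773). Sp100, a nuclear body protein induced by interferon, measured 10.8, 8.07 and 11.7 against 6.06, 4.37 and 4.76 (log2 difference 0.99 ± 0.16, adjusted p = 0.0861). Parp9, a partner of the ubiquitin ligase DTX3L, measured 20.7, 15.8 and 21.1 against 11.8, 10.2 and 9.58 (log2 difference 0.85 ± 0.14, adjusted p = 0.0885). None of these 6 genes overlapped between the groups. In the combination tumors Sp100 ranged over 5.07 to 5.69 and Trim12a over 1.88 to 2.19 FPKM, below every palbociclib tumor.

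**Figure D4:**
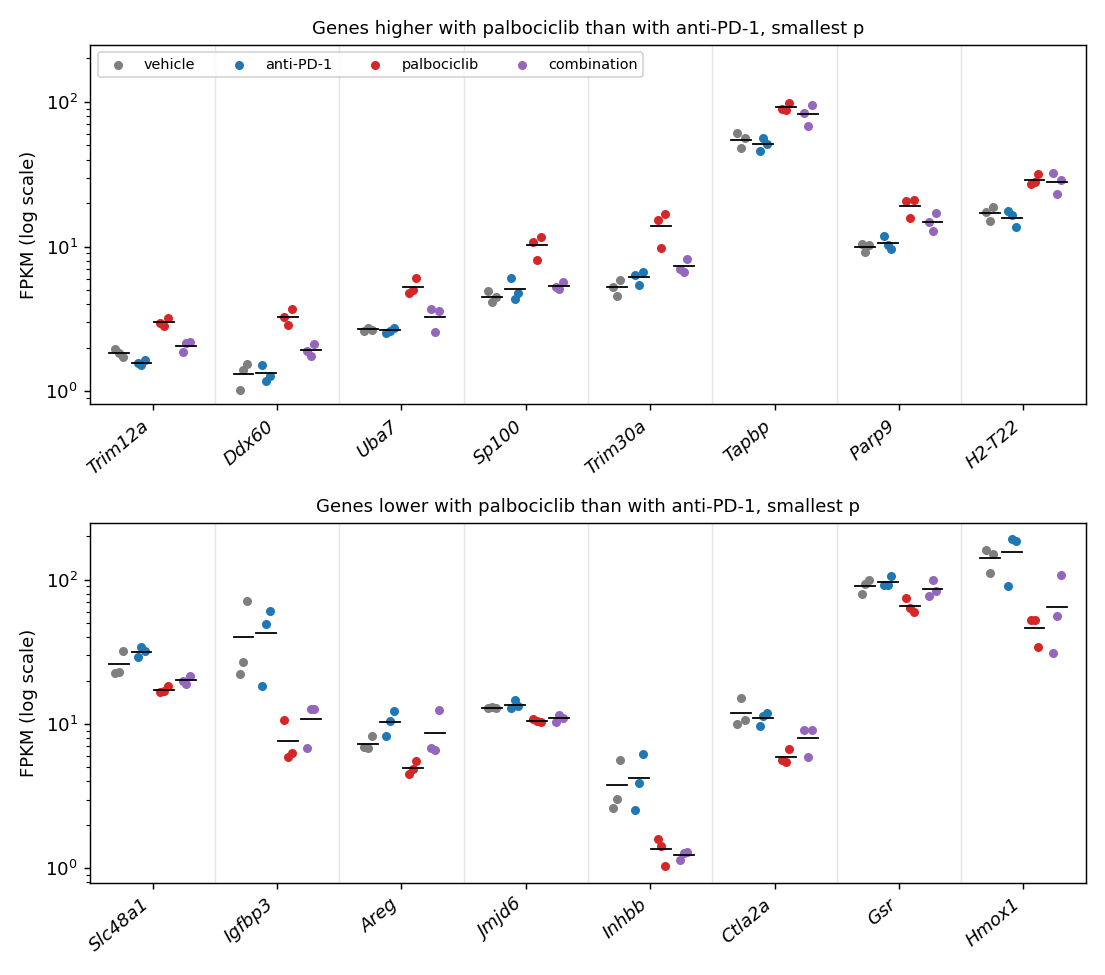
FPKM on a log scale in each of the 12 tumors for the 8 higher and the 8 lower named genes with the smallest p among those that do not overlap between palbociclib and anti-PD-1, with bars at the mean of 3 tumors. For the higher genes, all 3 palbociclib tumors lie above every anti-PD-1 and vehicle tumor.

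The regions before the start sites of 3 of the leading genes, and of the type I interferon gene Isg15 for comparison, are shown so that the letters of the interferon response element can be read in place. The searched motif was GAAANNGAAA or, on the other strand, TTTCNNTTTC, the core letters of the interferon-stimulated response element, in the window from 250 bases before to 50 after each RefSeq start site on GRCm38.p6. In the sequences below, which run 5′ to 3′ on the strand of the gene over the 250 bases before the start site, capitals mark the matches, and overlapping matches form 1 run.
Ddx60, chr8:61927837-61928086, plus strand: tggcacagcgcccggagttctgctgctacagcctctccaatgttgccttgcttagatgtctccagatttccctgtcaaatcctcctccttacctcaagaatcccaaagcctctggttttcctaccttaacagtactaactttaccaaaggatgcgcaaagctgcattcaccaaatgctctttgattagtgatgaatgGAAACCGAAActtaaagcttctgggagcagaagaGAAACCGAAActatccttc
Trim30a, chr7:104465194-104465443, minus strand: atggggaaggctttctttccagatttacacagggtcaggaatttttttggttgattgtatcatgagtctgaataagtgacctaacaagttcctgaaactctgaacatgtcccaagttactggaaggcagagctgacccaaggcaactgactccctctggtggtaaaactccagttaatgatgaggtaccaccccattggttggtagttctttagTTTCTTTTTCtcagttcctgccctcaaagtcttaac
H2-T22, chr17:36042743-36042992, minus strand: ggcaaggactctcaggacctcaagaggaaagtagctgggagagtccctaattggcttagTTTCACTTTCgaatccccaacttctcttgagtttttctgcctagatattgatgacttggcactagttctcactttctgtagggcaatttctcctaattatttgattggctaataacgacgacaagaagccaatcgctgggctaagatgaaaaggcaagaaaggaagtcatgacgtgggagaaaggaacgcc
Isg15, chr4:156200819-156201068, minus strand: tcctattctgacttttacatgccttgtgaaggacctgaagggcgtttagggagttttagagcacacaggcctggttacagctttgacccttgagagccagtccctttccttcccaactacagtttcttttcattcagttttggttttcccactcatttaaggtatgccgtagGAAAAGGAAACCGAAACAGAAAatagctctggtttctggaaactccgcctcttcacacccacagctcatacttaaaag
Ddx60 has 2 matches, which begin 53 and 19 bases before its start site, Trim30a 1 that begins 36 bases before and H2-T22 1 that begins 191 bases before. Isg15 has 3 overlapping matches that begin 78, 72 and 66 bases before. Trim30a has a further start site in RefSeq with a match too. Of the 8 higher genes with the smallest p, 7 had a promoter in the table and 4 of these held the motif (57.1%), and of the 8 lower genes 1 of 5 (Inhbb). The motif was found in 12 of 20 genes of the type I interferon list (60%), in 11 of 15 of the interferon gamma list (73.3%), in 5 of 20 of the MHC class I list, in 1 of 10 of the neutrophil list and in 1 of 17 of the mitosis list. A match describes letters in this window, not a bound site. Of all genes tested that had a promoter, 318 of 8329 held it (3.82%), and of all 32851 promoters in the table the share was 3.44%.

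All 30 genes of a type I interferon list were higher with palbociclib, and 29 had an unadjusted p under 0.05, against 8.78% of all genes. The median log2 difference was 0.98, with a range from 0.53 to 1.58, and 22 of the 30 did not overlap between the groups, against 13.4% of all genes. Bst2 (tetherin), which holds budding viruses at the cell surface, was the most abundant at 521, 433 and 613 FPKM against 332, 336 and 327 (log2 difference 0.64 ± 0.15, adjusted p = 0.195). Isg15, the ubiquitin-like modifier, measured 182, 92.5 and 274 against 91.9, 78.7 and 64.97 (log2 difference 1.10 ± 0.36, adjusted p = 0.298). Palbociclib replicate 2 was the lowest of the 3 for both, and for Isg15 it stood only a little above the highest anti-PD-1 tumor. Ifi27l2a, a small interferon-induced membrane protein, measured 88.3, 58.97 and 94.4 against 59.6, 39.4 and 28.7 (log2 difference 0.95 ± 0.38, adjusted p = 0.387), with palbociclib replicate 2 just below anti-PD-1 replicate 1. Over the whole list the summed FPKM was 1416, 970.5 and 1771 with palbociclib, 803, 758 and 680.1 with anti-PD-1 and 559.9 to 699.6 in vehicle tumors. Palbociclib replicate 2 was the palbociclib tumor with skin transcripts, and without it the list median was 1.25. The list was also higher in anti-PD-1 than in vehicle tumors, by a median of 0.37, against 1.39 for palbociclib minus vehicle. Single steps of the pathway are shown by genes picked once their values were seen. The viral RNA sensor Ifih1 measured 3.67, 3.14 and 4.13 against 2.33, 1.44 and 1.58 FPKM (log2 difference 1.01 ± 0.19, adjusted p = 0.104). The groups did not overlap. The receptor chain Ifnar1 overlapped at 9.105, 10.9 and 8.56 against 7.86, 9.02 and 9.25 (log2 difference 0.12 ± 0.12, adjusted p = 0.764). The adaptor gene of cytosolic DNA sensing, Tmem173 (STING), likewise overlapped with 28.2, 31.03 and 31.8 against 34.00, 24.1 and 25.3 (log2 difference 0.14 ± 0.17, adjusted p = 0.807). Ifnb1, the interferon beta gene, was listed at 0 in all 3 anti-PD-1 tumors and 1 palbociclib tumor and did not exceed 0.241 FPKM in the others.

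Genes induced by interferon gamma had a larger median difference than the type I list. Of 28, 25 lay wholly higher with palbociclib and 0 lower, against 12.5% and 3.29% of the 21665 genes above 0. The filter was passed by 23, all of them higher. An unadjusted p under 0.05 was reached by 20 of the 23, against 8.78% of all genes. The median log2 difference was 1.53 and the range 0.15 to 3.05. Gbp2, a guanylate-binding protein that attacks pathogen vacuoles, measured 91.7, 107 and 114 against 35.00, 26.5 and 24.1 FPKM, 3.68-fold higher (log2 difference 1.88 ± 0.44, adjusted p = 0.194). In vehicle tumors it measured 43.8, 17.9 and 31.1, with 1 tumor above, 1 within and 1 below the anti-PD-1 range. Cxcl10, a ligand of CXCR3 on activated T cells, measured 29.9, 18.9 and 45.8 against 16.2, 16.8 and 10.2 (log2 difference 1.07 ± 0.31, adjusted p = 0.271). Wars, a tryptophanyl-tRNA synthetase that interferon gamma also induces, overlapped at 26.5, 24.6 and 28.3 against 26.3, 23.7 and 21.5 (log2 difference 0.15 ± 0.18, adjusted p = 0.815). Of members named after their values were seen, Cxcl9, the other main CXCR3 ligand, had the widest difference at 15.02, 38.8 and 23.8 against 8.51, 1.41 and 1.82 (log2 difference 3.05 ± 0.96, adjusted p = 0.287). Irf1, the transcription factor that relays the signal, measured 24.2, 31.1 and 26.8 against 17.7, 14.1 and 13.9 (log2 difference 0.84 ± 0.26, adjusted p = 0.277). Irgm2, an immunity-related GTPase, measured 18.6, 18.1 and 24.9 against 7.47, 6.897 and 6.51 (log2 difference 1.53 ± 0.32, adjusted p = 0.143). Palbociclib replicate 2 was the highest tumor for Cxcl9 and Irf1 and the lowest of its group for Cxcl10. Ifng itself stayed under the filter at 0.307, 0.891 and 0.9502 against 0.3895, 0.102 and 0.0895 FPKM, and the groups overlapped, with 2 palbociclib tumors high and palbociclib replicate 1 below anti-PD-1 replicate 1. The receptor chain Ifngr1 measured 17.3, 18.2 and 19.3 against 14.4, 16.5 and 16.7 (log2 difference 0.21 ± 0.11, adjusted p = 0.547). Gbp, Irg and Tgtp genes have near-identical relatives, so the values of single members are uncertain.

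Antigen presentation by MHC class I was higher with palbociclib in the genes of its heavy chains, peptide transporter and immunoproteasome. Of 21 listed genes, 20 were higher, with a median difference of 0.87. Of these, 18 had an unadjusted p under 0.05, against 8.78% of all genes, and 18 did not overlap, against 13.4%. The light chain B2m measured 1611, 1412 and 1960.2 FPKM against 946, 749 and 866 (log2 difference 0.95 ± 0.23, adjusted p = 0.196). The classical heavy chain gene H2-D1 measured 651, 706 and 739.6 against 427, 373 and 443 (log2 difference 0.76 ± 0.18, adjusted p = 0.184). Tapbp (tapasin), which holds the peptide transporter to the heavy chain and lies on chr17:33915899-33929292, measured 88.9, 87.9 and 98.98 against 46.03, 56.3 and 50.96 (log2 difference 0.85 ± 0.14, adjusted p = 0.0861). These 3 genes did not overlap between the groups. H2-T22, a non-classical molecule recognized by some gamma-delta T cells on chr17:36037128-36042747, measured 26.97, 27.9 and 31.99 against 17.5, 16.4 and 13.6 (log2 difference 0.87 ± 0.15, adjusted p = 0.0885). Heavy chain genes are close paralogs, and reads between them may be shared. The transporter gene Tap1 and the immunoproteasome subunit Psmb9, neighbors on chromosome 17 that were named after their values were seen, had adjusted p-values just under 0.1. Tap1 measured 13.98, 12.99 and 16.5 against 6.57, 5.31 and 6.496 (log2 difference 1.23 ± 0.21, adjusted p = 0.09499). Psmb9 measured 6.73, 7.56 and 9.16 against 3.39, 1.71 and 2.63 (log2 difference 1.60 ± 0.28, adjusted p = 0.0971). The general chaperones of the pathway did not follow: Calr measured 240.4, 286 and 344 against 275, 262 and 261 (log2 difference 0.11 ± 0.14, adjusted p = 0.823) and overlapped, Pdia3 had a log2 difference of 0.16 and Canx of -0.01. Against vehicle, the list median was 0.75 for palbociclib and -0.11 for anti-PD-1.

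Of the immune lists, MHC class II had the largest median difference. Of 12 listed genes 9 lay wholly higher with palbociclib and 0 lower, against 12.5% and 3.29% of the genes above 0. The filter, which a gene can pass through the higher group alone, was passed by 9. Of these, 8 had an unadjusted p under 0.05, all higher with palbociclib, against 8.78% of all genes. The median difference was 2.22, and the largest was 3.61 for H2-Eb1. Class II chains are made by dendritic cells, macrophages and B cells. H2-Aa, named after its values were seen, measured 27.8, 80.9 and 76.8 FPKM with palbociclib and 9.604, 3.32 and 2.99 with anti-PD-1 (log2 difference 3.57 ± 1.06, adjusted p = 0.272). The palbociclib tumors spread widely, with replicate 1 well below the other 2, and anti-PD-1 replicate 1 lay above its group. Vehicle tumors spread from 3.41 to 48.5, so that 1 vehicle tumor lay within the palbociclib range. The most abundant members were lysosomal. Ctss, the protease that trims the invariant chain, measured 162, 259 and 160.4 against 149.9, 39.3 and 44.2 (log2 difference 1.56 ± 0.64, adjusted p = 0.4098). The thiol reductase Ifi30 measured 98.9, 136 and 118 against 101, 47.2 and 47.4 (log2 difference 0.94 ± 0.40, adjusted p = 0.425), and anti-PD-1 replicate 1 reached the palbociclib levels. The protease Lgmn measured 140.4, 144 and 129 against 184, 82.8 and 88.9 (log2 difference 0.32 ± 0.29, adjusted p = 0.748), with anti-PD-1 replicate 1 the highest of the 6. Without that tumor all 9 class II genes were higher at an unadjusted p under 0.05, against 1328 of all 11207 genes, and the median was 2.65.

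Most macrophage and dendritic cell genes were higher with palbociclib, and the macrophage count changed when single tumors were left out. Of 21 macrophage and monocyte genes past the filter, 19 were higher with palbociclib, 8 at an unadjusted p under 0.05, against 8.78% of all genes. Over all 22 members 6 lay wholly higher and 1 (Cd14) lower, against 12.5% and 3.29% of the genes above 0. The median difference was 1.05, and 1.59 with 16 genes at an unadjusted p under 0.05 when anti-PD-1 replicate 1 was left out, but 2 genes passed without anti-PD-1 replicate 2 and 2 without replicate 3. Over all genes the higher count was 984 with every tumor and 1328, 780 and 674 without anti-PD-1 replicates 1, 2 and 3. C1qa, a complement gene of tissue macrophages, measured 158, 268 and 307 with palbociclib against 125, 30.99 and 32.6 with anti-PD-1 (log2 difference 2.23 ± 0.75, adjusted p = 0.303). Its neighbor C1qb measured 167, 290.1 and 311 against 154, 40.04 and 45.6 (log2 difference 1.91 ± 0.68, adjusted p = 0.325). The lysozyme gene Lyz2 overlapped at 536, 943 and 709 against 858, 235 and 223 (adjusted p = 0.622). Anti-PD-1 replicate 1 stood far above the other anti-PD-1 tumors in all 3, and vehicle replicate 1 did so among the vehicle tumors, with Lyz2 at 962, 383 and 198. Of the list, Retnla, a secreted product of alternatively activated macrophages that fat tissue also makes, had the largest log2 difference. It measured 40.5, 10.6 and 14.3 with palbociclib and 0, 0.205 and 0 with anti-PD-1 (adjusted p = 0.104), and it was named after its values were seen. It was highest in palbociclib replicate 1, the tumor with the highest adipose sum, and the part of fat tissue in it was not tested. Of 14 dendritic cell genes only 4 passed the filter, which a gene can do through the higher group alone. Clec10a, a lectin of type 2 dendritic cells and macrophages, measured 6.08, 7.98 and 7.56 against 2.65, 1.04 and 1.33 (log2 difference 2.14 ± 0.59, adjusted p = 0.251). The chemokine Ccl22 measured 3.77, 4.33 and 3.55 against 1.75, 0.906 and 0.388 (log2 difference 2.03 ± 0.61, adjusted p = 0.272). Fscn1, an actin-bundling protein of mature dendritic cells, overlapped at 51.99, 61.7 and 66.6 against 51.2, 67.9 and 63.2, with a log2 difference of -0.01. Over all 14 members 6 lay wholly above and 0 below, against 12.5% and 3.29% of all 21665 genes above 0.

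Most lymphocyte genes were low in both groups, and many were higher with palbociclib. Only 7 of 25 T cell genes passed the filter, so the counts here use every member above 0: 19 of 25 lay higher in all 3 palbociclib tumors than in any anti-PD-1 tumor, against 12.5% of all genes above 0, and 0 lower. At an unadjusted p under 0.05, 6 of the 7 were higher, against 8.78% of all genes tested. Without palbociclib replicate 3 it was 3 of the 7, against 699 of all 11207 genes. Trbc1, a constant chain of the T cell receptor, measured 3.17, 3.22 and 4.16 FPKM with palbociclib against 1.65, 2.58 and 1.64 with anti-PD-1 (log2 difference 0.84 ± 0.29, adjusted p = 0.306). Trbc2, the other beta chain, measured 2.495, 3.596 and 4.88 against 1.43, 0.797 and 1.48 (log2 difference 1.49 ± 0.44, adjusted p = 0.271). The 2 chains share much sequence, so their reads may be split uncertainly. Thy1, which fibroblasts make as well, overlapped at 10.1, 17.7 and 18.8 against 14.3, 9.54 and 8.43. Cd8a, the defining marker of cytotoxic T cells, was named after its values were seen and measured 0.457, 0.542 and 1.07 against 0.319, 0.104 and 0.231. Cd4, the marker of helper T cells, measured 0.696, 1.37 and 1.899 against 0.242, 0.284 and 0.0653. Both genes stayed under the filter and did not overlap. The summed level of the 25 genes was 32.3, 42.3 and 54.7 with palbociclib, 27.2, 17.4 and 18.4 with anti-PD-1 and 30.9, 20.5 and 15.8 in vehicle tumors, so vehicle replicate 1 nearly reached palbociclib replicate 1. Among NK and cytotoxic genes, 10 of 18 lay wholly higher with palbociclib, against the same 12.5%, and 0 lower. Of 9 past the filter, 5 had an unadjusted p under 0.05, all higher, against 8.78% of all genes tested. The 5 became 2 or 3 without anti-PD-1 replicate 1, anti-PD-1 replicate 3 or palbociclib replicate 3. In these fits the higher count over all genes tested was 1328, 674 and 699, against 984 with every tumor. The granule genes that dominate this list overlapped. Gzmb, the main granzyme, measured 27.2, 44.2 and 31.5 against 21.3, 33.8 and 31.7 (log2 difference 0.24 ± 0.43, adjusted p = 0.883), Gzmc 50.8, 108 and 58.9 against 43.8, 84.2 and 55.1 and the perforin gene Prf1 11.6, 17.1 and 12.02 against 6.18, 17.4 and 14.1. Ncr1 (NKp46), the defining receptor of NK cells, was named after its values were seen and did not overlap, at 0.9696, 2.33 and 2.202 against 0.854, 0.771 and 0.306 (log2 difference 1.38 ± 0.42, adjusted p = 0.281). Of 11 B and plasma cell genes, 4 lay wholly higher, again against 12.5%, and 0 lower. Ighm, the IgM heavy chain, measured 3.11, 7.33 and 10.2 against 1.62, 1.74 and 1.51 (log2 difference 1.87 ± 0.55, adjusted p = 0.272), and the light chain Igkc overlapped at 7.42, 3.29 and 14.5 against 3.93, 0.461 and 1.01 (log2 difference 2.40 ± 0.77, adjusted p = 0.288). Cd79a, the signaling chain of the B cell receptor and the other member past the filter, lay the other way at 0.846, 0.739 and 0.911 against 2.04, 0.883 and 0.926 (log2 difference -0.48 ± 0.48, adjusted p = 0.773), with overlap. The defining B cell marker Ms4a1 did not exceed 0.0294 FPKM in any of the 6 tumors.

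Neutrophil genes lay in the other direction. All 11 that passed the filter, of 16, were lower with palbociclib, 7 at an unadjusted p under 0.05 (2.24% of all genes) and 8 without overlap (4.27%), with a median difference of -1.86. Over all 16 members, 10 lay wholly lower and 0 higher, against 3.29% and 12.5% of the genes above 0. S100a9, a calcium-binding alarmin of neutrophils, measured 20.8, 16.5 and 8.04 with palbociclib and 33.3, 197 and 168 with anti-PD-1 (log2 difference -2.87 ± 1.05, adjusted p = 0.345). Its partner S100a8 measured 5.77, 5.47 and 3.19 against 5.68, 47.1 and 45.97 (log2 difference -2.29 ± 1.16, adjusted p = 0.515). The secreted protein Retnlg measured 3.25, 0.774 and 1.49 against 3.95, 22.2 and 19.3 (log2 difference -2.85 ± 1.02, adjusted p = 0.332). Anti-PD-1 replicates 2 and 3 were high and replicate 1 lay close to the palbociclib tumors, overlapping them for S100a8. Vehicle tumors were as divided, with S100a9 at 21.8, 42.4 and 370.4. Summed over the list, the FPKM was 51.4, 35.8 and 23.9 with palbociclib, 70.7, 319 and 290.4 with anti-PD-1 and 48.9, 76.9 and 617 with vehicle, so vehicle replicate 1 lay within the palbociclib range and vehicle replicate 3 above all others. The count of 7 changed when single tumors were left out. It was 8 with a median of -2.17 without anti-PD-1 replicate 1, 4 without palbociclib replicate 2, 3 without anti-PD-1 replicate 2, and 2 without anti-PD-1 replicate 3 or palbociclib replicate 3, where the median was -1.47 in the latter. The lower count over all genes was 251 with every tumor and, in the same order, 457, 148, 179, 156 and 180. The median for palbociclib minus vehicle was -1.39 and for anti-PD-1 minus vehicle 0.46. The granule gene Ngp of immature neutrophils did not exceed 0.7903 FPKM in any of the 6 tumors, nor Camp 0.478.

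Cytokines that recruit or come from neutrophils were lower as well. Of 18, 10 passed the filter and all 10 were lower with palbociclib, with a median difference of -1.33 and 5 at an unadjusted p under 0.05, against 2.24% of all genes. The 5 became 8 without anti-PD-1 replicate 1 and 1 without anti-PD-1 replicate 2, anti-PD-1 replicate 3 or palbociclib replicate 3. In the same fits the lower count over all genes went from 251 to 457, 179, 156 and 180. Of the 17 above 0, 5 lay wholly lower and 0 higher, against 3.29% and 12.5% of all genes above 0. Cxcl1, a ligand of CXCR2, measured 10.7, 14.6 and 4.27 with palbociclib and 8.01, 53.98 and 49.2 with anti-PD-1 (log2 difference -1.66 ± 0.78, adjusted p = 0.4699). Il1b, the gene of interleukin 1 beta, measured 4.43, 5.98 and 1.87 against 5.06, 34.96 and 28.1 (log2 difference -2.19 ± 1.07, adjusted p = 0.495). Ptgs2, the inducible prostaglandin synthase COX-2, measured 7.97, 6.55 and 3.95 against 7.76, 21.9 and 29.6 (log2 difference -1.52 ± 0.62, adjusted p = 0.406). In all 3 genes anti-PD-1 replicate 1 lay within the palbociclib range and the other 2 anti-PD-1 tumors above it. Cxcl2 and Cxcl3, further CXCR2 ligands named after their values were seen, did not overlap. Cxcl2 measured 2.14, 1.396 and 0.632 against 2.42, 10.3 and 9.31 (log2 difference -2.22 ± 0.79, adjusted p = 0.327). Cxcl3 measured 1.63, 0.194 and 0.134 against 2.73, 6.66 and 8.203 (log2 difference -3.46 ± 1.13, adjusted p = 0.2898). The chemokines for monocytes and lymphocytes were mixed. Ccl8, a monocyte attractant, was higher with palbociclib at 191, 303 and 335 against 153, 71.9 and 61.7 (log2 difference 1.61 ± 0.52, adjusted p = 0.291). Ccl2, the main ligand of CCR2, overlapped at 108, 137 and 114 against 95.3, 136 and 134 (log2 difference -0.01 ± 0.33, adjusted p = 0.996), and so did Ccl6 at 131, 141 and 83.8 against 129, 65.00 and 76.5 (log2 difference 0.42 ± 0.33, adjusted p = 0.697). Of the 17 such genes above 0, 7 lay wholly higher and 1 lower, against 12.5% and 3.29% of all genes above 0. Of 12 past the filter, 3 were higher and 1 lower at an unadjusted p under 0.05, against 8.78% and 2.24%. The lower one, named after its values were seen, was Cxcr4, the CXCL12 receptor, at 2.32, 2.16 and 1.23 against 2.78, 4.16 and 5.54 (log2 difference -1.08 ± 0.35, adjusted p = 0.288).

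Slc48a1, a transporter that moves heme out of lysosomes, was the lower gene with the smallest p. On chr15:97778520-97792692, it measured 16.7, 16.8 and 18.4 with palbociclib and 29.3, 33.97 and 32.1 with anti-PD-1, a log2 difference of -0.87 ± 0.13 (SE, adjusted p = 0.0773). Each group was tight and the gap between them was wide, and vehicle tumors at 22.5, 23.1 and 32.2 lay above every palbociclib tumor. Hmox1, which encodes the enzyme that degrades heme, measured 53.00, 52.6 and 34.05 against 90.1, 191 and 186 (log2 difference -1.69 ± 0.42, adjusted p = 0.218), 3.22-fold higher with anti-PD-1, and 161, 112 and 152 in vehicle tumors. Gsr, which keeps glutathione reduced, measured 75.3, 63.6 and 59.8 against 91.5, 92.5 and 107 (log2 difference -0.55 ± 0.13, adjusted p = 0.211). All 3 genes stood without overlap, and the next are secreted factors. Igfbp3, a binding protein of insulin-like growth factors, measured 10.7, 5.88 and 6.35 against 18.4, 49.2 and 61.1 (log2 difference -2.35 ± 0.51, adjusted p = 0.169). Areg, a ligand of the EGF receptor, measured 4.52, 4.87 and 5.56 against 8.299, 10.5 and 12.4 (log2 difference -1.03 ± 0.23, adjusted p = 0.169). Inhbb, the beta B subunit of activin and inhibin, measured 1.61, 1.44 and 1.04 against 2.54, 3.92 and 6.19 (log2 difference -1.49 ± 0.33, adjusted p = 0.169). Anti-PD-1 replicate 1 was the lowest of its group for Igfbp3, Areg and Inhbb, yet above each palbociclib tumor. Ctla2a, a cathepsin inhibitor, measured 5.66, 5.44 and 6.68 against 9.703, 11.3 and 11.9 (log2 difference -0.88 ± 0.19, adjusted p = 0.169). The hydroxylase gene Jmjd6 measured 10.9, 10.5 and 10.4 against 12.9, 14.6 and 13.3 (log2 difference -0.36 ± 0.08, adjusted p = 0.169), the smallest difference of the 8. Ctla2a has a close paralog, Ctla2b, with which reads may be shared.

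Endothelial genes were lower with palbociclib. Of 13 that passed the filter, 11 were lower, 7 of them at an unadjusted p under 0.05 (2.24% of all genes), with a median difference of -0.68. The 7 became 3 without palbociclib replicate 2 and 1 without anti-PD-1 replicate 3, where the median was -0.43, and with a filter at a mean FPKM of 5 the median over 3 genes was -0.28. Leaving out these tumors took the lower count over all genes from 251 to 148 and 156. Over all 17 members, 8 lay wholly lower and 1 higher, against 3.29% and 12.5% of all genes above 0. Cdh5 (VE-cadherin), the junction protein that defines endothelium, measured 6.92, 6.19 and 7.39 with palbociclib and 9.63, 11.1 and 18.1 with anti-PD-1 (log2 difference -0.86 ± 0.29, adjusted p = 0.299). Podxl overlapped at 9.02, 7.22 and 7.76 against 11.2, 10.2 and 7.68 (log2 difference -0.26 ± 0.21, adjusted p = 0.708). So did Plvap, which forms the diaphragms of fenestrated vessels, at 5.02, 8.84 and 9.29 against 8.69, 9.12 and 9.38 (log2 difference -0.28 ± 0.23, adjusted p = 0.712). Of members named after their values were seen, Pecam1 (CD31) measured 3.18, 3.34 and 3.71 against 4.15, 5.11 and 7.64 (log2 difference -0.67 ± 0.27, adjusted p = 0.398). The VEGF receptor gene Flt1 measured 1.097, 0.733 and 0.721 against 1.36, 1.67 and 2.58 (log2 difference -1.03 ± 0.35, adjusted p = 0.305). Kdr, the other main VEGF receptor, overlapped at 1.34, 1.48 and 1.35 against 1.32, 0.947 and 1.44 (log2 difference 0.18 ± 0.37, adjusted p = 0.905). In Cdh5, Pecam1 and Flt1 anti-PD-1 replicate 3 was the highest of the 6. The summed level was 44.3, 42.7 and 49.2 with palbociclib, 56.7, 61.4 and 85.4 with anti-PD-1 and 51.3, 50.1 and 80.4 with vehicle. Thus 2 vehicle tumors were only just above the palbociclib range.

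Stroma and metabolism showed few differences. Of 23 collagen and fibroblast genes past the filter, 13 were higher and 10 lower, and 1, Col12a1, had an unadjusted p under 0.05, with lower levels under palbociclib. Col6a1, a chain of microfibrillar collagen, was higher in every palbociclib tumor at 133, 195 and 163 against 119, 112 and 115 (log2 difference 0.49 ± 0.25, adjusted p = 0.523). The fibrillar collagen gene Col3a1 overlapped at 201, 274 and 340.2 against 114, 233 and 235 (log2 difference 0.53 ± 0.27, adjusted p = 0.519). Hypoxia and glycolysis genes overlapped without exception. Of 27, 25 were lower with palbociclib with a median of -0.28 and 0 with an unadjusted p under 0.05. Pkm, a pyruvate kinase, measured 1632, 1812 and 1453 against 1668, 2276 and 2011. Pgk1, the phosphoglycerate kinase, measured 694, 705 and 467 against 426, 1100.0 and 895, with anti-PD-1 replicate 1 the lowest of the 6 and the other anti-PD-1 tumors the highest. Without anti-PD-1 replicate 1, the median was -0.65 and 7 of the 27 were lower at an unadjusted p under 0.05, against 457 of all 11207 genes. Oxidative phosphorylation (0.06, 26 genes), the unfolded protein and ATF4 response (-0.07, 20 genes) and cholesterol and lipid synthesis (0.11, 20 genes) had medians near that of all genes, with 2, 0 and 0 genes at an unadjusted p under 0.05. Scd1, a fatty acid desaturase, did not overlap at 273, 66.3 and 47.6 against 39.4, 47.3 and 37.7 (log2 difference 1.20 ± 0.95, adjusted p = 0.697), with its highest level in palbociclib replicate 1, the tumor with adipose transcripts. Hemoglobin genes overlapped, with Hbb-bs at 148, 45.6 and 128 against 42.6, 81.6 and 324.

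Each single treatment can be read beside vehicle, with the caution that both differences use the same 3 vehicle tumors. Palbociclib against vehicle had 29 genes past an adjusted p of 0.05, 27 higher (0.241% of all genes) and 2 lower (0.0178%). Of the 29, 12 belong to the type I interferon or interferon gamma lists, which hold 30 and 23 of the 11207 genes tested. Anti-PD-1 against vehicle had 0 (0%), with 1075 genes at an unadjusted p under 0.05 against 1681 for palbociclib. Of the leading genes, Ddx60 had a log2 difference from vehicle of 1.26 with palbociclib and 0.02 with anti-PD-1, Sp100 of 1.15 and 0.15, and Uba7 of 0.95 and -0.02. These 3 were among the genes that rose with palbociclib against vehicle. Slc48a1 stood at -0.56 with palbociclib and 0.31 with anti-PD-1, neither of which passed, on opposite sides of vehicle. The median over all genes was 0.05 for palbociclib minus vehicle and -0.02 for anti-PD-1 minus vehicle. For the interferon gamma list these medians were 1.71 and 0.09, for MHC class II 1.85 and -0.37, and for endothelium -0.52 and 0.16. Mitosis (0.40 and 0.22) and S phase genes (0.34 and 0.26) lay above vehicle in both treatments, without a gene past the adjusted threshold.

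**Figure D5:**
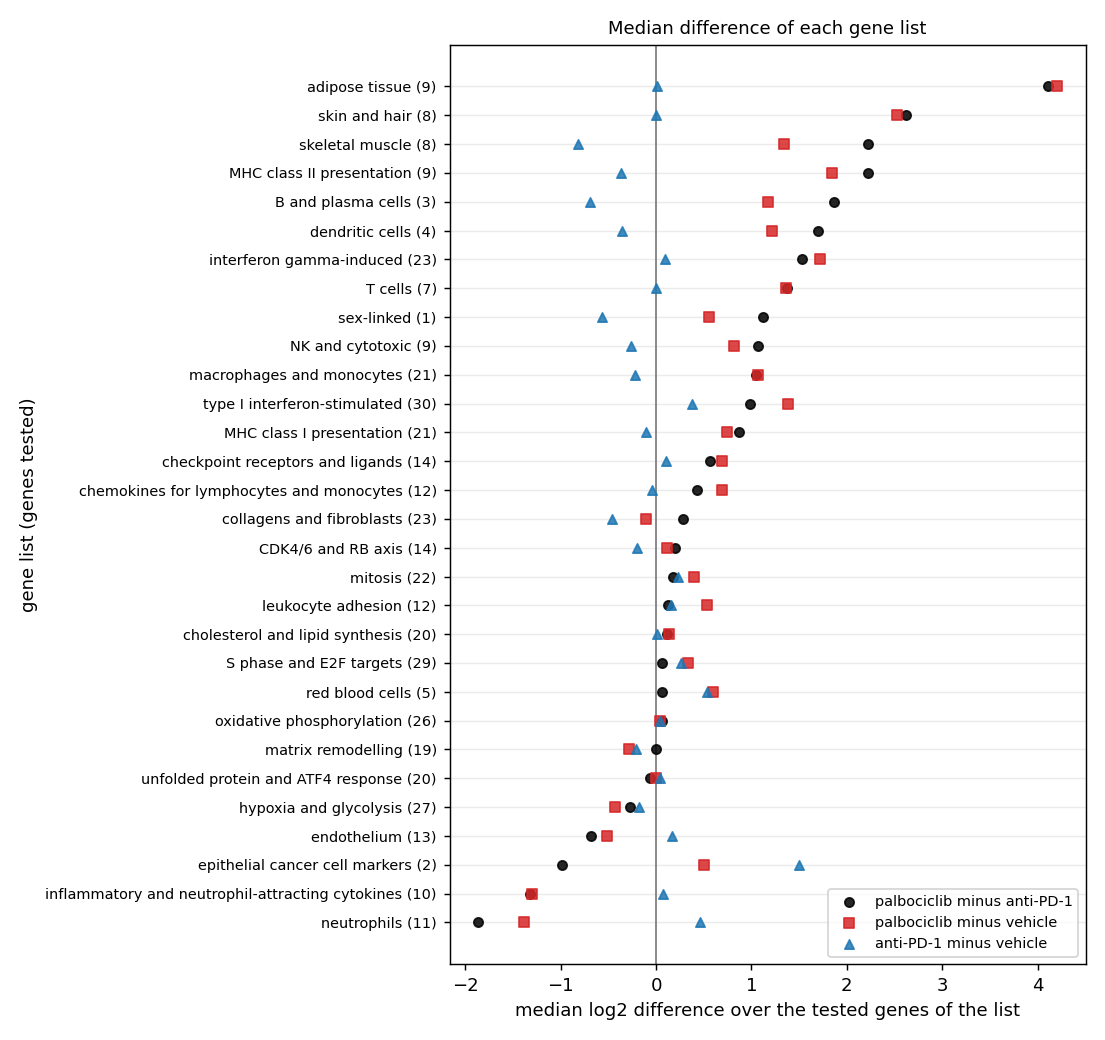
Median log2 difference over the tested genes of each of 30 gene lists, with the number of genes tested in brackets, for palbociclib minus anti-PD-1 (circles), palbociclib minus vehicle (squares) and anti-PD-1 minus vehicle (triangles). Interferon, MHC and lymphocyte lists lie to the right for palbociclib and nearer 0 for anti-PD-1 minus vehicle, and neutrophil and cytokine lists lie to the left for palbociclib, while the adipose, muscle and skin lists have their highest sums in 1 palbociclib tumor each among the monotherapies.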

How the data were processed

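The series holds 12 tumors, 3 for each of vehicle, palbociclib, anti-PD-1 and the combination, with 1 table of gene FPKM per tumor. The authors sequenced total RNA on a NovaSeq instrument, aligned reads to the mouse genome (HISAT2, GRCm38/mm10, per the submitters' processing notes) and deposited FPKM values. The tool and annotation behind the FPKM are not given in the sources used here, and neither is the treatment of strand. Read totals were not used here: fragments per tumor were estimated from the steps between low FPKM values, and FPKM of low genes are the least precise. The tables have 34745 entries, with 67 repeats of a symbol that were reduced to their most abundant entry, giving 34678 symbols. Gene positions come from GENCODE M21 (32724 symbols matched) and promoters from RefSeq GRCm38.p6.

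FPKM + 0.1 was taken to the log2 scale, and genes with a mean of at least 1 over the palbociclib and anti-PD-1 tumors were fitted with limma 3.58.1 (R 4.3.3) with a mean for each of the 4 groups over all 12 tumors, an intensity trend in the prior variance, 8 residual degrees of freedom and Benjamini-Hochberg adjustment over all genes. Tests are two-sided. Summaries and figures used Python 3.11.15, numpy 2.4.6, pandas 2.3.3 and matplotlib 3.10.9. Simulated tables with 200 of 11207 genes changed served to test the fit, which recovered 149 at a log2 change of 1 with 12 false calls and 191 at a change of 2 with 9. The changed genes were drawn at random, and the noise had each gene's own spread but was independent between genes. Over all genes the median SE was 0.156. Genes such as Gbp2 and H2-Aa have larger SEs, so these rates do not carry over to them. No pair of tumors held identical values.

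The gene lists and the comparison were chosen with earlier results of these data known. Genes are named by 3 rules: genes called without overlap, filled up to the 8 with the smallest p in each direction, 10 fixed genes of the drug pathways, and the 3 most abundant members of each list. Others are to be taken as chosen after their values were seen, also where the text does not say so. Alternatives changed the tumors in the fit, the pseudocount, the filter, the scaling, the trend and a replicate block, and left out each tumor. Lists were described by counts and medians and were not tested as sets.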

Additional observations from a re-analysis of the deposited data

How the results depend on the processing

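The count of 0 genes past the adjusted threshold between palbociclib and anti-PD-1 changed under these settings: 12 genes with only the 6 monotherapy tumors in the fit, 11 after rescaling to TPM, 4 without a trend and 3 with every gene above 0 in the filter (Gm28857, Rtn4r and Trav3-1). It stayed at 0 with a pseudocount of 0.01 or 1, a filter at a mean of 0.1 or 5, and quantile normalization. Leaving out 1 tumor gave 0 to 32 genes, with 32 without combination replicate 2, 6 without palbociclib replicate 2 and 1 each without anti-PD-1 replicate 1, combination replicate 3 or vehicle replicate 3. For palbociclib against vehicle, 29 became 10 with every gene above 0, 19 at a filter of 5, 50 with TPM and 1 to 57 without 1 tumor. For anti-PD-1 against vehicle, 0 became 1 with every gene above 0 and stayed at 0 without any 1 tumor. The causes were not tested. Counts of genes without overlap, added after seeing the data, were 1500 higher and 479 lower, 1708 and 358 with TPM, 775 and 1140 with quantile normalization, and 3205 and 1432 without anti-PD-1 replicate 1. Under quantile normalization 27 of 30 type I interferon genes and 19 of 23 interferon gamma genes stayed higher at an unadjusted p under 0.05, and 7 of 11 neutrophil genes lower. Of 111 named genes over 22 settings, 86 kept the sign of their difference in all. Many of these settings cannot change a difference: the fit to only the 6 tumors, the block, the trend, the filters, and leaving out a vehicle or combination tumor. For genes chosen because their groups did not overlap, leaving out 1 tumor cannot turn the sign either. The count of 86 is therefore no test of how stable the differences are. Depth limits genes under 1 FPKM most.

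With a replicate block the counts were 18 genes for palbociclib against anti-PD-1 and 53 for palbociclib against vehicle. Deviations from the group means of same-numbered palbociclib and anti-PD-1 tumors correlated at -0.183, -0.0186 and -0.226 across genes. These correlations cover only those groups, so they cannot decide whether same-numbered tumors share a litter or batch. The labels name none.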

Other observations

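Further groups of genes outside the lists are described here, all chosen after their values were seen. Mast cell proteases were higher with palbociclib: Mcpt4 measured 5.05, 19.8 and 34.6 FPKM against 2.43, 0 and 0 with anti-PD-1, and Cma1 4.36, 18.3 and 30.3 against 2.58, 0 and 0. Tpsb2 (2.68, 11.9 and 21.1 against 2.08, 0 and 0.1498) and Cpa3 (2.48, 8.999 and 19.6 against 1.93, 0.0808 and 0.0356) had the same order of tumors, with the highest level in palbociclib replicate 3 and the lowest palbociclib level in replicate 1. In vehicle tumors Mcpt4 measured 8.09, 0.524 and 0.149. None of these 4 genes overlapped or passed the test, with adjusted p-values from 0.245 to 0.291 (limma). Mgl2, a lectin of macrophages and dendritic cells, measured 4.49, 10.8 and 9.09 against 1.57, 0.945 and 0.505, and the maturation marker Cd83 4.63, 8.599 and 6.703 against 1.63, 0.829 and 0.554.

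Genes of iron handling lay in both directions. The ferritin chains were lower with palbociclib, with Fth1 at 1533, 1202 and 1802 against 2024, 3505 and 2952 and Ftl1 at 173, 180.3 and 207 against 230.2, 265 and 266, and so was the iron exporter Slc40a1 at 0.304, 0.337 and 0.656 against 1.43, 1.66 and 1.92. The transferrin receptor gene Tfrc was higher at 23.4, 48.8 and 24.5 against 11.5, 13.2 and 13.2. None of these 4 genes overlapped or passed the test, and their adjusted p-values (limma) ran from 0.272 to 0.404. Of antioxidant genes that share regulation with Hmox1, Gclm was lower in all 3 palbociclib tumors at 4.84, 4.403 and 4.41 against 6.19, 7.54 and 6.77, whereas Nqo1 (2.98, 3.46 and 4.63 against 5.28, 4.26 and 3.09) and Srxn1 (18.9, 19.7 and 20.6 against 25.4, 17.1 and 17.5) overlapped.

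Markers of sprouting vessels were lower with palbociclib, with Esm1 at 1.59, 0.513 and 0.432 against 2.19, 6.92 and 16.7, Angpt2 at 3.02, 2.26 and 2.03 against 4.303, 7.297 and 13.2 and Dll4 at 1.29, 1.03 and 1.19 against 1.57, 2.39 and 3.75. In each of them anti-PD-1 replicate 3 and vehicle replicate 3 were the highest of their groups. Ppbp, a chemokine of platelets, measured 7.46, 1.43 and 1.56 against 25.2, 24.7 and 45.1.

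The mitochondrial gene mt-Nd4 was listed at 0 in anti-PD-1 replicate 1 and at 871 to 1073 FPKM in the palbociclib tumors. It is 1 of 3 genes listed at 0 in 1 of the 6 tumors and at 5 FPKM or more in the others.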
